A study of Oryza sativa with 23 samples.

Results

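A set of 177 of the 35679 rice genes in the files had a level in the variety Hacha and almost none in the variety Lachit. Levels are in TPM, a unit that corrects reads for the length of a transcript and for the size of the library, and were summed over the transcripts of a gene and averaged over the libraries of a group. A gene was taken when its mean lay below 0.2 TPM in all 4 Lachit groups and reached 2 TPM in at least 2 of the 4 Hacha groups. These values chose the genes, so the difference between the varieties is described below and was given no test.

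Plants of Oryza sativa were grown in nutrient solution and sampled at an age of 11 days, and RNA of the whole root or of the L2 leaf was sequenced. The line Hacha came from a cross of CRM 53 and IR 64, and Lachit from a cross of CRM 13-3241 and Kalinga 2. Control plants of both lines stood in solution with 50 µM Fe sodium EDTA at pH 6.2. Plants under excess iron were moved at 9 days of age, for 2 days, to solution of pH 5.2 that also held 15 mM Fe sulfate, so that acidity and sulfate changed with iron. The 4 Hacha groups are control root (n = 3), excess-iron root (n = 2), control leaf (n = 3) and excess-iron leaf (n = 3), and the 4 Lachit groups had 3 libraries each. Whether replicates were separate plants is not given in the labels, and p-values therefore cover only the spread between these libraries, which may be technical.

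The 23 libraries held between 16659607 and 33386840 estimated counts. Within Hacha control leaf, library 1 stood apart, with a correlation of log2(TPM + 1) across genes of 0.972 and 0.973 with libraries 2 and 3, which correlated at 0.994. The excess-iron leaf libraries of Hacha correlated at 0.968 to 0.984, and the root libraries of Hacha at 0.988 or more. The lowest values were in excess-iron leaf of Lachit, at 0.940 for libraries 2 and 3 and 0.968 for 1 and 3, and these libraries entered the leaf iron fit and the Lachit leaf counts below. Root and leaf were not checked against organ markers, because the files pair no identifier with a gene name.

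Varieties of rice differ in gene content as well as in sequence. A gene of the reference genome can be missing from a variety, can be present in a diverged form, or can be present and silent. Reads were assigned to the transcripts of a single reference build, IRGSP-1.0, so these states cannot be told apart by a level near 0, and the words "not expressed" mean here only that almost no read was assigned. Excess iron is a stress of rice on flooded, acid soils: soluble ferrous iron enters through the root, is carried to the shoot and gives rise to reactive oxygen there. In whole organs, fewer cells expressing a gene and less RNA per cell cannot be told apart either. Since no identifier of the set matched the reference table of gene names, the genes are described by identifier, level and place, without a role.

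The near absence in Lachit held in each of its libraries. All reads of the 177 genes together made up 2045 to 2124 CPM (counts scaled to the library total) in control roots of Hacha, 1820 and 1915 in excess-iron roots, 1788 to 1936 in control leaves and 1011 to 1085 in excess-iron leaves. In the 12 Lachit libraries the same sum lay between 4.73 and 9.80 CPM, below every Hacha library. This was 2352 reads in Lachit against 438499 in Hacha, or 0.445% after scaling to the total counts of each variety. Of the 177 genes, 10 had no read in any Lachit library, 96 had between 1 and 10 reads over the 12 libraries, and 71 had more, up to 80. A count of 0 over these libraries allows a level of up to 0.00955 CPM, for counting error only. The highest value of any gene in a single Lachit library was 0.480 TPM.

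**Figure D1:**
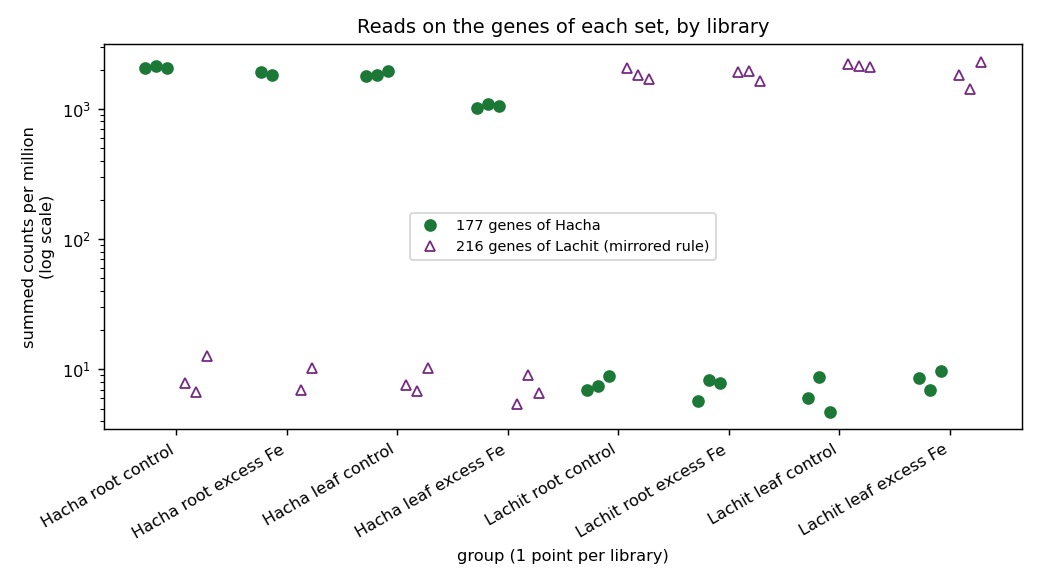
Summed reads of the 177 genes (filled circles) in each of the 23 libraries, in CPM on a log scale, with the 216 genes that meet the same rule with the varieties exchanged (open triangles). Filled circles lie between 1011 and 2124 in Hacha and between 4.73 and 9.80 in Lachit, and in Hacha they are lowest in excess-iron leaf.

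The few Lachit reads were a small share of the Hacha reads of the same gene. Among the 45 genes with a highest Hacha group mean of 20 TPM or more, Lachit reads were a median of 0.262% of the Hacha reads, with a range of 0.0721% to 0.922%. Among the 35 genes below 5 TPM the median was 0.497% and the range 0% to 11.1%. These shares are of reads without scaling. The ceiling of the rule keeps them small, the more so at high Hacha levels, so they describe the choice of genes. When the varieties were exchanged in the rule, 216 genes were found. Their summed reads in Hacha were 0.415% of those in Lachit, after scaling to the total counts of each variety. Whether the remaining reads came from Lachit plants was not tested.

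Levels in Lachit ran on without a gap at the ceiling of the rule. Of the 19650 genes that met the Hacha floor of 2 TPM in at least 2 groups, 19094 reached a mean of 2 TPM in at least 1 Lachit group. A further 223 had their highest Lachit mean between 1 and 2 TPM, 79 between 0.5 and 1 TPM and 77 between 0.2 and 0.5 TPM. Of the 177 genes, 129 lay below 0.1 TPM in every Lachit group and 48 had a highest group mean between 0.1 and 0.2 TPM. Just inside the ceiling were OS10G0567900 at 0.1998, OS11G0665600 at 0.199 and OS03G0229100 at 0.198 TPM in their highest Lachit group, and just outside were OS04G0302900 at 0.209 and OS02G0561900 and OS03G0847500 at 0.211 TPM. At the Hacha floor, the second-highest group means just inside were 2.01 TPM for OS10G0172600, 2.03 for OS05G0237400 and 2.06 for OS02G0231700. Just outside were OS03G0113200 and OS04G0267950 at 1.98 TPM and OS12G0283300 at 1.97 TPM.

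Within Hacha the genes spanned a wide range of levels. Mean TPM over the 4 Hacha groups had a median of 5.81, an interquartile range of 3.26 to 12.1 and a maximum of 61.4, whereas the 19650 genes that met the Hacha floor had a median of 16.7. The highest group mean was at least 10 TPM in 91 genes and at least 20 TPM in 45. Their longest transcripts had a median length of 1234 bases against 1517 for the genes that met the floor, and 159 of them (89.8%) had a single annotated transcript, against 76.7%. The identifiers of this annotation were first given with the ending 00, and 43 of the 177 genes (24.3%) carried another ending, compared with 8.51% of the genes that met the floor, 17.9% of all genes and 26.4% of the 216 genes of the exchanged rule. These properties were not tested against the rest.

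Most of the genes had a level in both organs. By the threshold of the rule, 85 genes (48.0%) reached 2 TPM in all 4 Hacha groups, 145 (81.9%) in at least 1 group of each organ, 27 (15.3%) in both root groups only and 5 (2.82%) in both leaf groups only. Among the genes that met the Hacha floor, 69.1% reached 2 TPM in all 4 groups, 88.3% in both organs, 7.75% in root groups only and 3.95% in leaf groups only. Of the 216 genes of the exchanged rule, 53.2% reached it in all 4 Lachit groups, 14.4% in root only and 15.7%, or 34 genes, in leaf only. After the 85 genes, the most frequent pattern was both root groups with control leaf but without excess-iron leaf, in 29 genes, and 12 genes reached 2 TPM in both controls and in neither excess-iron group. The rule used these levels, so these counts describe the choice of genes.

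**Figure D2:**
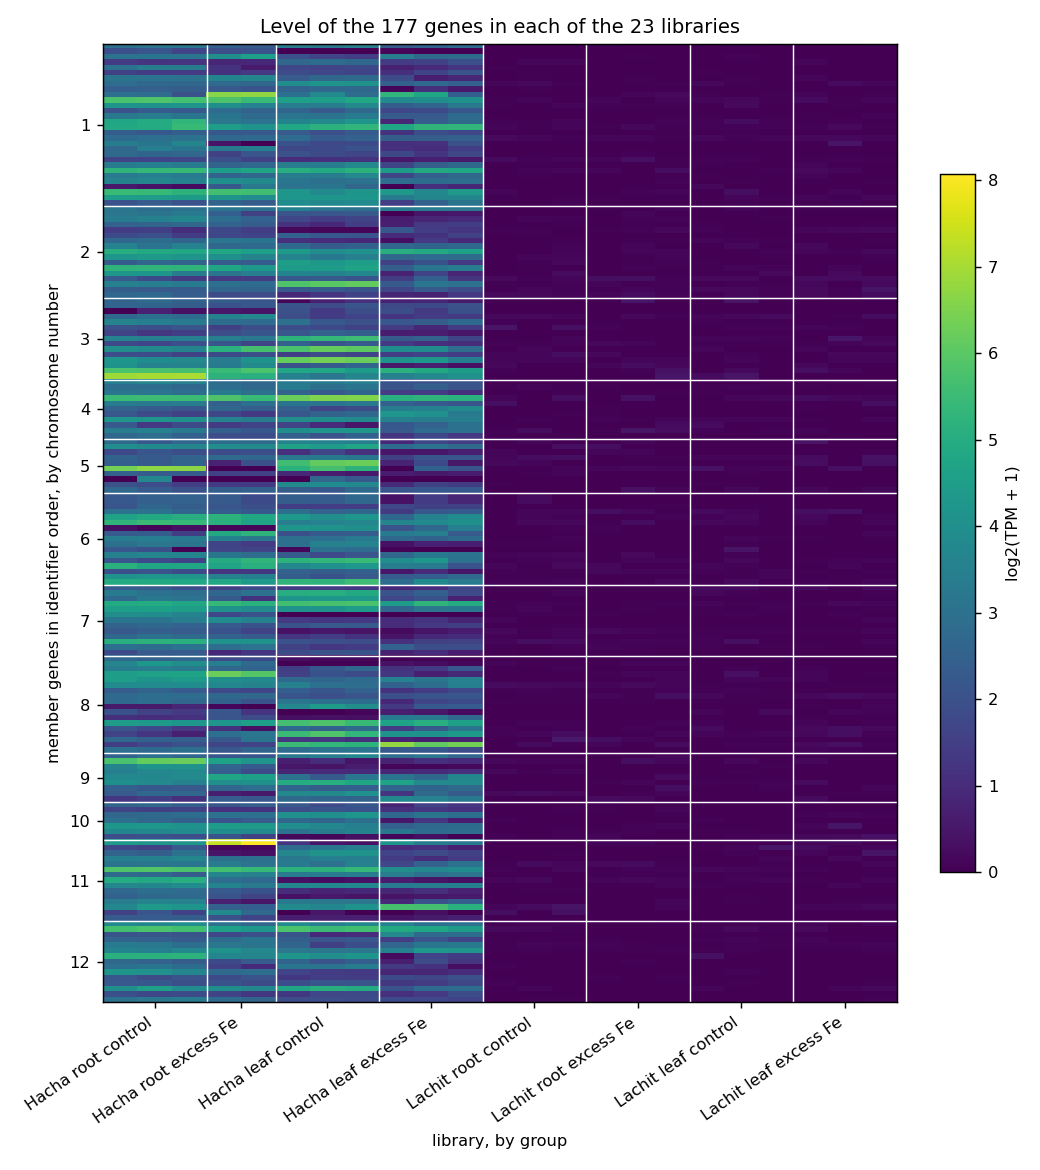
Level of the 177 genes (rows, in identifier order within chromosome numbers) in each of the 23 libraries (columns, by group), as log2(TPM + 1) in colour. Rows are bright in many Hacha columns and dark in all Lachit columns, where the highest single value was 0.480 TPM.

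The most abundant gene over the 4 Hacha groups was OS11G0114300 on chromosome 11, with a mean of 61.4 TPM that rested on excess-iron root. It stood at 19.2, 17.3 and 17.5 TPM in the 3 control roots, 163 and 267 in excess-iron root, 1.32, 0.412 and 0.296 in control leaf and 17.3, 9.60 and 8.29 in excess-iron leaf. Both excess-iron roots lay above all other libraries, and excess-iron leaves lay above all control leaves. Lachit had 4 reads of it over its 12 libraries. The second, OS04G0113800 on chromosome 4, was highest in control leaf, at 74.6, 89.4 and 92.1 TPM, and lay between 33.7 and 54.9 TPM in the 8 other Hacha libraries, with 12 reads in Lachit. OS03G0846200 on chromosome 3 was highest in control root, at 119, 129 and 129 TPM, and lower in the excess-iron roots, at 36.2 and 34.1 TPM, while no leaf library exceeded 16.9 TPM.

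The other 5 genes among the 8 most abundant were spread more evenly. OS03G0785100 ranged from 20.3 to 54.5 TPM over the 11 Hacha libraries, OS11G0256300 from 12.7 to 57.7, OS07G0248800 from 20.4 to 52.6, OS12G0103580 from 17.7 to 54.6 and OS01G0541000 from 13.3 to 55.9 TPM. Lachit held between 11 and 23 reads of each of these 5 genes. The 3 genes with the smallest coefficient of variation over the 4 Hacha group means, chosen for that steadiness, were OS02G0113300 at 10.5%, OS05G0489500 at 11.0% and OS11G0470600 at 14.1%. OS02G0113300 lay between 6.16 and 10.7 TPM in all 11 libraries, OS05G0489500 between 3.01 and 5.78 TPM and OS11G0470600 between 8.69 and 14.0 TPM.

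In root, as many of the genes rose as fell under excess iron. The iron comparisons use Hacha levels that entered the rule, so their counts are partly fixed by that choice and are given as a description. With edgeR's quasi-likelihood test and an adjusted p below 0.05 over all 27479 genes tested in root, 30 of the 174 genes that passed the filter on low counts rose and 30 fell, while 114 did not pass the test and 3 were not tested. This was 17.2% in each direction, compared with 29.6% higher and 32.7% lower among all genes tested, and 34.5% against 62.3% in either direction. Among the genes tested in root that met the Hacha floor, 36.3% rose and 29.2% fell. The median log2 fold change was 0.01 over the 174 genes, -0.05 over all genes tested and 0.09 over those that met the floor. The set also had lower levels than other expressed genes, with the medians of 5.81 and 16.7 TPM given above, and the part of this in the lower share was not tested. Scaled by library totals, which moved the median of all genes to -0.31, the counts were 20 higher and 44 lower, or 11.5% and 25.3% against 22.2% and 40.9% of all genes. Limma on log2(TPM + 1) gave 26 higher and 84 lower, or 14.9% and 48.3% against 20.2% and 44.8%. Without excess-iron library 1, which leaves 1 library in that group, the median log2 fold change was -0.06 over the set and -0.08 over all genes tested.

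The largest rise was that of OS01G0537250 on chromosome 1. Its control roots stood at 6.88, 6.39 and 3.02 TPM and its excess-iron roots at 98.9 and 106 TPM. The groups did not overlap, and the log2 fold change was 4.61 (SE 0.34, edgeR adjusted p = 3.82e-06). In leaf the control libraries lay at 6.69, 13.1 and 6.41 TPM and the excess-iron libraries at 38.9, 25.6 and 4.28 TPM, which overlapped.

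OS01G0964333, also on chromosome 1, stood at 0.451, 0.303 and 0.176 TPM in control root and at 3.73 and 8.44 TPM in excess-iron root, with 6 and 64 reads in the groups. The groups did not overlap, and the log2 fold change was 4.55 (SE 0.66). In leaf it moved the other way, from 7.33, 7.74 and 5.39 TPM in control to 0, 1.11 and 0.843 TPM under excess iron. All control leaves lay above all excess-iron leaves, with a log2 fold change of -3.34 (SE 0.76). The gene met the rule through excess-iron root and control leaf only, so both changes are given without a p.

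OS06G0635500 on chromosome 6 had the same pair of directions at a higher level. Control roots held 3.48, 2.43 and 1.94 TPM and excess-iron roots 30.2 and 38.0 TPM, without overlap and with a log2 fold change of 4.08 (SE 0.31, edgeR adjusted p = 1.36e-06). Control leaves held 36.5, 39.7 and 42.4 TPM and excess-iron leaves 14.7, 18.6 and 7.26 TPM, again without overlap, and the log2 fold change was -1.43 (SE 0.40, edgeR adjusted p = 0.00854). In control plants the gene was higher in leaf than in root (log2 difference 4.63, SE 0.40, edgeR adjusted p = 4.57e-06). Under excess iron its root libraries lay above its leaf libraries, but that difference did not pass the test (edgeR adjusted p = 0.0686). OS11G0114300, described above, rose in both organs, by a log2 fold change of 3.96 in root (SE 0.23, edgeR adjusted p = 1.21e-06) and 4.36 in leaf (SE 0.67, edgeR adjusted p = 0.000461).

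The deepest fall in root was that of OS05G0215066 on chromosome 5. Its control roots stood at 82.6, 104 and 101 TPM, from 3314 reads, and neither excess-iron root held a read. Against a floor of 3 counts over the group it was at least 499-fold lower under excess iron (edgeR adjusted p = 1.05e-07). In leaf it fell from 34.9, 50.4 and 36.5 TPM to 0, 4.70 and 3.24 TPM, without overlap between the groups (log2 fold change -3.91, SE 0.90, edgeR adjusted p = 0.00292). In Lachit it had 14 reads over 12 libraries.

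The other falls picked out by size in root were at lower levels. OS11G0639300 on chromosome 11 stood at 9.56, 11.1 and 11.0 TPM in control root and at 0.625 and 0.374 TPM under excess iron, a log2 fold change of -4.01 (SE 0.43, edgeR adjusted p = 1.34e-05) with no overlap. It also fell in leaf, from 8.66, 8.43 and 8.20 TPM to 0.898, 3.09 and 4.41 TPM (log2 fold change -1.55, SE 0.47, edgeR adjusted p = 0.0142). OS01G0654900 on chromosome 1 had 82 reads in control root, at 9.67, 7.71 and 11.8 TPM, and 1 read in excess-iron root, at 0.356 and 0 TPM. The ratio of depth-scaled reads was 37.1, with a 95% interval of 6.47 to 1482 for counting error only. The gene met the rule through its control groups only, so this fall is given without a p. It had too few reads in leaf to be tested there.

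In leaf, many more of the genes fell than rose under excess iron. The rule used these levels too. It was met by 29 genes in both root groups and control leaf without excess-iron leaf, and by 5 with excess-iron leaf in place of control leaf. Another 12 met it in both controls only and 2 in both excess-iron groups only. The counts are thus partly fixed by that choice and are given as a description. Of the 167 genes that passed the filter in leaf, 18 rose, 74 fell and 75 did not pass edgeR's test at an adjusted p below 0.05, and 10 were not tested. The 44.3% that fell compare with 32.9% of all 25505 genes tested, and the 10.8% that rose with 32.4%; in either direction 65.3% of all genes were called. Among the genes tested that met the Hacha floor, 37.6% rose and 32.1% fell. The median log2 fold change was -0.73 over the 167 genes, 0.00 over all genes tested and 0.13 over those that met the floor. Without the filter on low counts, where all 177 genes were tested, 17 rose and 73 fell, or 9.60% and 41.2% against 24.8% and 26.2% of all genes. Without control library 1, which stood apart, 15 rose and 67 fell, or 8.88% and 39.6% against 31.5% and 30.6%. Without control library 3, 10 rose and 62 fell, or 5.99% and 37.1% against 25.2% and 30.7%. These counts include 2 pairs of genes that share their reads, described with the order of the genes.

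In the leaves of Lachit, the genes of the exchanged rule rose less often than all genes and did not fall more often. Of 196 tested there, 11 rose and 36 fell, against 19.7% higher and 19.1% lower among all genes. The rises were a smaller share than in all genes, and the falls were not a larger one. The median log2 fold change was -0.31, against 0.02 over all genes. In Lachit roots, 42 rose and 24 fell of 191 tested, both smaller shares than the 29.4% and 29.3% of all genes. The exchanged rule used the Lachit levels compared here, so these counts are partly fixed by that choice and are given as a description. The genes and libraries differ from those of the Hacha set, and the difference between the 2 sets was not tested.

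**Figure D3:**
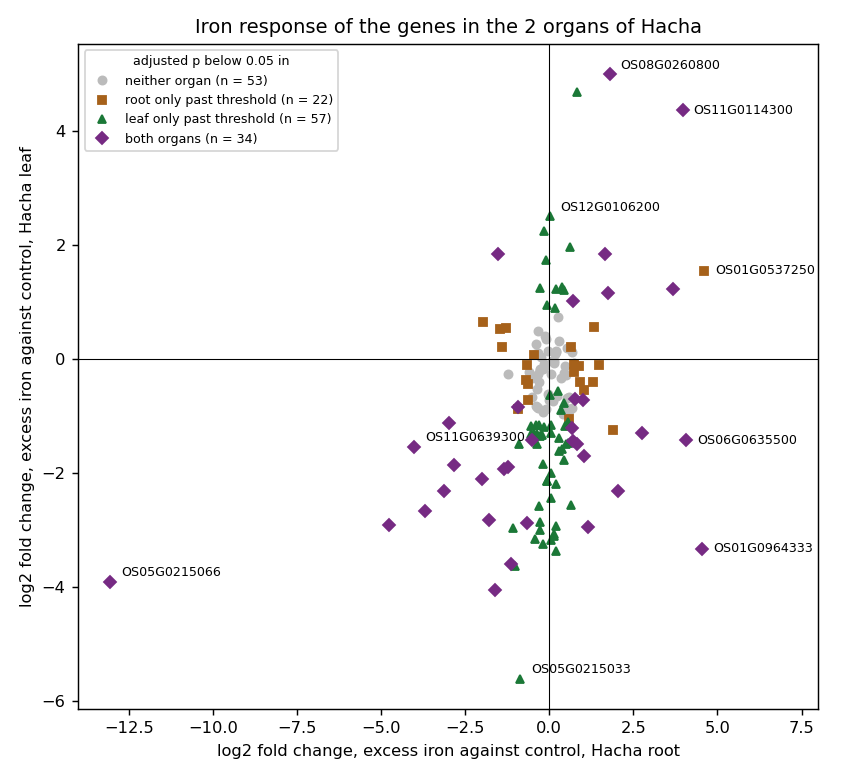
Log2 fold change under excess iron in Hacha root (horizontal axis) and Hacha leaf (vertical axis) for the 166 genes tested in both organs, with symbols for the organs in which the adjusted p was below 0.05. Points past the threshold in leaf lie mostly below 0, and the value of OS05G0215066 at the far left depends on the prior count, since its excess-iron root libraries held no read.

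OS05G0215033, the identifier next to OS05G0215066, had the deepest fall in leaf. Control leaves stood at 47.4, 68.6 and 75.9 TPM and excess-iron leaves at 0.706, 2.53 and 0.438 TPM. All control leaves lay far above all excess-iron leaves, with a log2 fold change of -5.61 (SE 0.67). The gene met the rule through its control groups only, so this fall is given without a p. In root it was low in both solutions, at 4.35, 3.92 and 4.93 TPM in control and 0.763 and 2.96 TPM under excess iron, where the log2 fold change of -0.87 did not pass the test (SE 0.56, edgeR adjusted p = 0.204).

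OS06G0539066 on chromosome 6 fell in both organs. Control leaves held 6.80, 10.5 and 11.1 TPM and excess-iron leaves 0.327, 0.681 and 0.609 TPM, with a log2 fold change of -4.06 (SE 0.41). Control roots held 6.94, 8.14 and 7.59 TPM and excess-iron roots 2.18 and 1.63 TPM, with a log2 fold change of -1.61 (SE 0.21). The gene met the rule through its control groups only, so both falls are given without a p. Neither pair of groups overlapped.

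Rises in leaf were fewer. OS08G0260800 on chromosome 8 stood at 0.258, 0.291 and 0.245 TPM in control leaf and at 9.06, 9.08 and 5.42 TPM under excess iron, without overlap (log2 fold change 4.99, SE 0.40). In root it rose from 1.12, 1.02 and 1.23 TPM to 3.39 and 2.61 TPM (log2 fold change 1.79, SE 0.25). Both rises are given without a p, because the gene met the rule through its excess-iron groups only. This gene was lower in leaf than in root in control and higher in leaf under excess iron.

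OS12G0106200 on chromosome 12, with no read in Lachit, stood at 3.26, 0.864 and 1.02 TPM in control leaf and at 12.9, 5.83 and 6.30 TPM under excess iron. The groups did not overlap, although control library 1 lay above the other control leaves, and the log2 fold change was 2.50 (SE 0.65, edgeR adjusted p = 0.0126). Without control library 3 the adjusted p was 0.0520. Root libraries lay between 2.31 and 3.47 TPM in both solutions (log2 fold change 0.02, SE 0.35, edgeR adjusted p = 0.991).

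Calls in root and leaf were set side by side. Both tests were made for 166 of the genes: 6 rose in both organs, 16 fell in both, 11 rose in root and fell in leaf, and 1, OS11G0665600, fell in root and rose in leaf. In root alone 12 rose and 10 fell, in leaf alone 11 rose and 46 fell, and 53 passed in neither organ. Of all 24056 genes with both tests, 18.4% were higher and 13.6% lower in root and leaf alike, compared with 3.61% and 9.64% of the set. Opposite calls were made for 5.10% (higher in root, lower in leaf) and 5.64% (the reverse) of all genes, against 6.63% and 0.602% of the set. A fall in leaf alone was seen in 13.5% of all genes and 27.7% of the set, and 14.9% and 31.9% passed in neither. These shares were not tested against each other. The difference itself was tested as an interaction over the 11 Hacha libraries. Its levels entered the rule as well, so the counts are a description. Of 176 genes tested, 92 differed in their response between the organs (52.3%, against 46.5% of all genes tested). The response was lower in leaf than in root for 73 of them and higher for 19, against 22.6% lower and 23.9% higher among all 27680 genes, with edgeR adjusted p below 0.05. Genes tested that met the Hacha floor had 26.7% lower and 25.8% higher. Without excess-iron root library 2, which leaves 1 library in that group, the median log2 difference of the responses was -0.76 over the set and 0.16 over all genes tested.

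OS11G0665600, on chromosome 11, stood at 12.5, 19.8 and 17.0 TPM in control root and 4.51 and 4.34 TPM in excess-iron root. Its leaves held 13.4, 11.9 and 16.4 TPM in control and 51.2, 50.4 and 33.6 TPM under excess iron. Neither pair of groups overlapped. The log2 fold change was -1.52 in root (SE 0.33, edgeR adjusted p = 0.00223) and 1.83 in leaf (SE 0.25, edgeR adjusted p = 0.000235), and the difference between the organs was 3.32 on the log2 scale (SE 0.42, edgeR adjusted p = 0.000236).

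**Figure D4:**
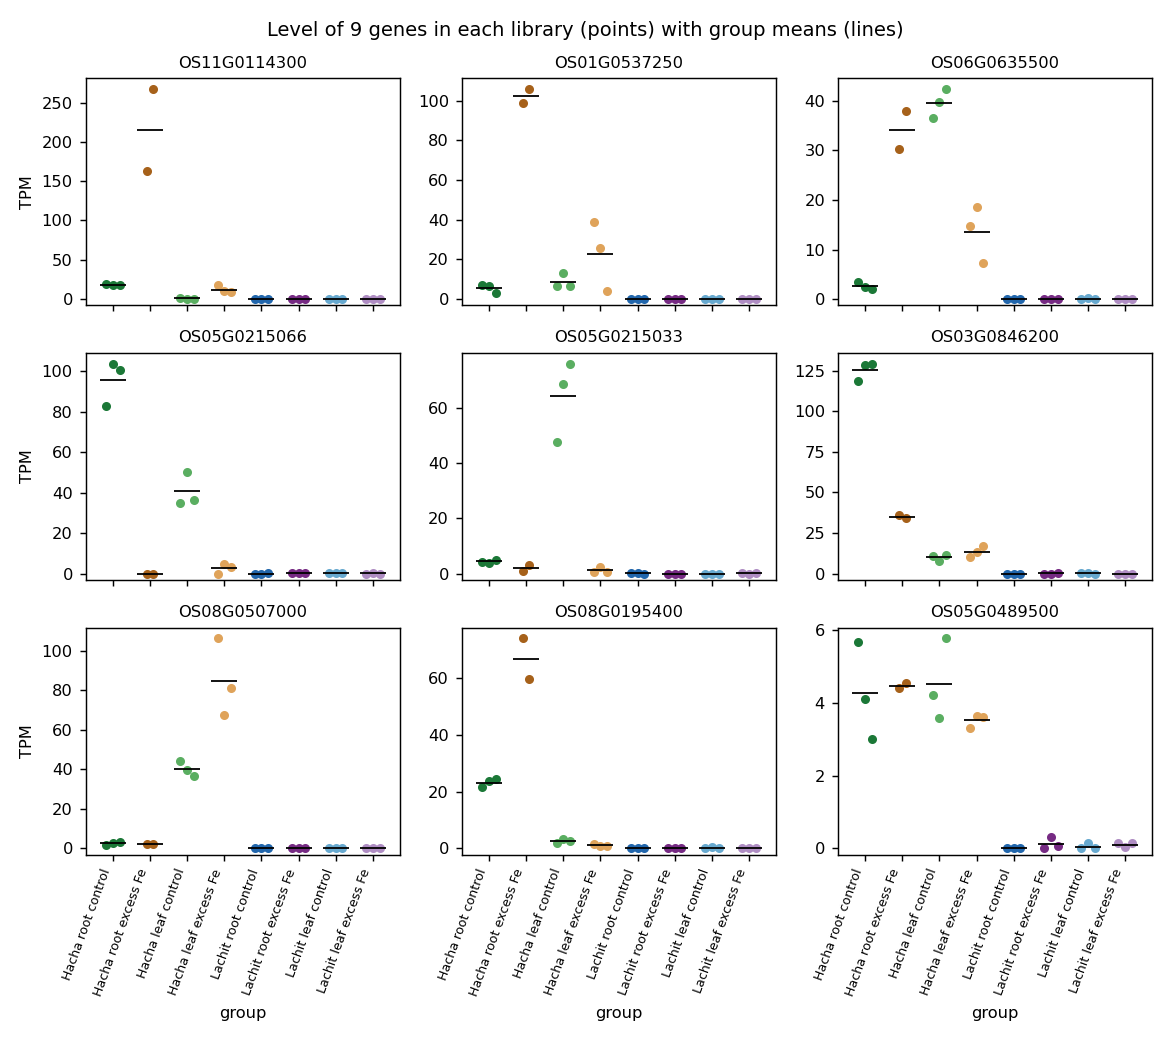
Level in TPM of 9 of the genes in each library (points) with group means (lines), on axes of their own scale. Excess-iron roots stand highest for OS11G0114300, OS01G0537250 and OS08G0195400, and OS05G0489500 lies between 3.01 and 5.78 TPM in all Hacha libraries. Both neighbours OS05G0215066 and OS05G0215033 are low under excess iron, though not near 0 in every Hacha library.

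The organ comparisons use Hacha levels that entered the rule, and 27 genes were taken for their root groups only and 5 for their leaf groups only, so the counts between organs are partly fixed by that choice and are given as a description. In control plants, with edgeR's test and TMM scaling, 68 of 176 genes tested were higher in leaf and 46 lower, against 30.9% and 37.1% of all 27680 genes tested, and 68% of all genes in either direction. The median log2 difference between leaf and root was 0.39 over the 176 genes and -0.13 over all genes. Scaled by library totals, which moved the median of all genes to -0.80, 41 were higher in leaf and 71 lower, or 23.3% and 40.3% against 19.8% and 54.2% of all genes. Limma on log2(TPM + 1) gave 41 and 76, or 23.3% and 43.2% against 19.5% and 56.6%. The direction with more calls thus turned with the scaling, while the share higher in leaf was above that of all genes and the share lower in leaf below it under all 3. Of the 144 genes tested that reached 2 TPM in both organs, 63 (43.8%) were higher in leaf and 22 (15.3%) lower, with TMM scaling only. Among all genes tested that met the Hacha floor, in 1 organ or both, the shares were 33.6% and 35.4%. The other scalings were not applied to these 144 genes.

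Under excess iron more of the genes were lower in leaf than higher. Of 176 tested, 32 were higher in leaf and 73 lower, against 28% and 25.9% of all genes tested (53.9% in either direction). With library totals, which moved the median of all genes to -0.41, the counts were 21 and 100, or 11.9% and 56.8% against 18.4% and 39.5% of all genes. The median log2 difference between leaf and root was -0.46 over the 176 genes and 0.04 over all genes tested. Leaving out excess-iron root library 2 leaves 1 library in that group. These medians were then -0.44 over the set and 0.05 over all genes tested. Of the 144 genes tested that reached 2 TPM in both organs, 27 (18.8%) were higher in leaf and 47 (32.6%) lower, with TMM scaling only. Among all genes tested that met the Hacha floor the shares were 31.5% and 27.1%.

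Among the genes named for their organ difference, OS06G0476100, OS08G0240000, OS07G0456033, OS08G0168400, OS11G0258900 and OS11G0667400 met the rule through the groups of a single organ, and their differences between organs are given without a p for that reason. OS06G0476100 on chromosome 6 stood at 17.8, 16.2 and 15.1 TPM in control leaf and 3.14, 5.40 and 10.2 TPM in excess-iron leaf, while no root library exceeded 0.291 TPM. The log2 difference between leaf and root was 6.94 in control (SE 0.47) and, from 258 reads in leaf and 2 in root under excess iron, the ratio of depth-scaled reads was 90.8, with a 95% counting interval of 24.9 to 754. All leaf libraries lay above all root libraries.

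OS08G0507000 on chromosome 8, which reached 2 TPM in all 4 groups, was also higher in leaf. It stood at 44.0, 39.9 and 36.5 TPM in control leaf and 106, 67.3 and 81.0 TPM in excess-iron leaf, and between 1.81 and 3.003 TPM in the 5 root libraries. The log2 difference between leaf and root was 4.76 in control (SE 0.29, edgeR adjusted p = 4.28e-07) and 5.74 under excess iron (SE 0.36, edgeR adjusted p = 2.20e-06). It was among the genes that rose under excess iron in leaf, with a log2 fold change of 1.22 (SE 0.31, edgeR adjusted p = 0.00514).

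OS08G0394000 and OS08G0240000, also on chromosome 8, were high in control leaf. OS08G0394000 held 44.1, 56.0 and 38.9 TPM there against 2.14, 1.40 and 0.624 TPM in control root, a log2 difference of 5.76 (SE 0.37, edgeR adjusted p = 5.96e-07). It moved toward equal levels under excess iron, with 16.7, 16.9 and 19.3 TPM in leaf and 6.76 and 7.91 TPM in root. OS08G0240000 held 12.4, 20.3 and 14.8 TPM in control leaf and at most 0.834 TPM in any root library, a log2 difference of 5.41 in control (SE 0.43).

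Among the genes high in root, OS07G0456033 on chromosome 7 had 1724 reads in control root, at 14.8, 14.6 and 11.2 TPM, and 1 read over the 6 leaf libraries of Hacha. The ratio of depth-scaled reads between control root and control leaf was 1178, with a 95% counting interval of 211 to 46571, and under excess iron the gene was at least 95.6-fold higher in root than in leaf. It fell in root under excess iron, to 2.40 and 3.14 TPM (log2 fold change -1.91, SE 0.30, edgeR adjusted p = 0.000198).

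OS08G0168400 and OS11G0258900 had the same organ pattern. OS08G0168400 stood at 11.7, 18.8 and 15.0 TPM in control root and 10.2 and 5.72 TPM in excess-iron root, against at most 0.307 TPM in any leaf library, and the log2 difference between leaf and root was -7.82 in control (SE 0.58). OS11G0258900 stood at 31.2, 28.4 and 32.4 TPM in control root, 6.41 and 5.71 TPM in excess-iron root and at most 0.530 TPM in leaf, with a log2 difference of -6.13 in control (SE 0.31). The fall of OS11G0258900 in root passed the test (log2 fold change -1.96, SE 0.22, edgeR adjusted p = 2.10e-05), and that of OS08G0168400 did not (log2 fold change -0.55, SE 0.28, edgeR adjusted p = 0.105).

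OS08G0195400 on chromosome 8 was root-high and rose in root. It stood at 21.5, 23.6 and 24.4 TPM in control root and 74.2 and 59.7 TPM in excess-iron root, against 1.88, 3.11 and 2.70 TPM in control leaf and 1.48, 0.615 and 0.847 TPM in excess-iron leaf. The rise in root had a log2 fold change of 1.90 (SE 0.13, edgeR adjusted p = 2.33e-06). The log2 difference between leaf and root was -2.43 in control (SE 0.33, edgeR adjusted p = 0.000108) and -5.62 under excess iron (SE 0.40, edgeR adjusted p = 4.18e-06). The shorter gene OS11G0667400, of 330 bases, also rose in root, from 1.94, 3.34 and 1.95 TPM to 13.4 and 5.72 TPM (log2 fold change 2.33, SE 0.53, edgeR adjusted p = 0.00407), and had 3 reads in all leaf libraries of Hacha.

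The genes lay on all 12 chromosomes, by the chromosome number in their identifiers. Positions in bases are not given by the files, so order was taken from the identifiers, which number the genes along each chromosome. Chromosome 1 held 30 of the genes, chromosome 8 held 18, chromosomes 2 and 6 held 17 each, chromosomes 3, 11 and 12 held 15 each, and the others held between 7 and 13. As a share of the genes on the chromosome that met the Hacha floor, chromosome 11 had the most at 1.53%, followed by chromosome 12 at 1.45% and chromosome 8 at 1.40%, and chromosome 3 had the least at 0.557%. These shares are descriptions and were not compared by a test.

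**Figure D5:**
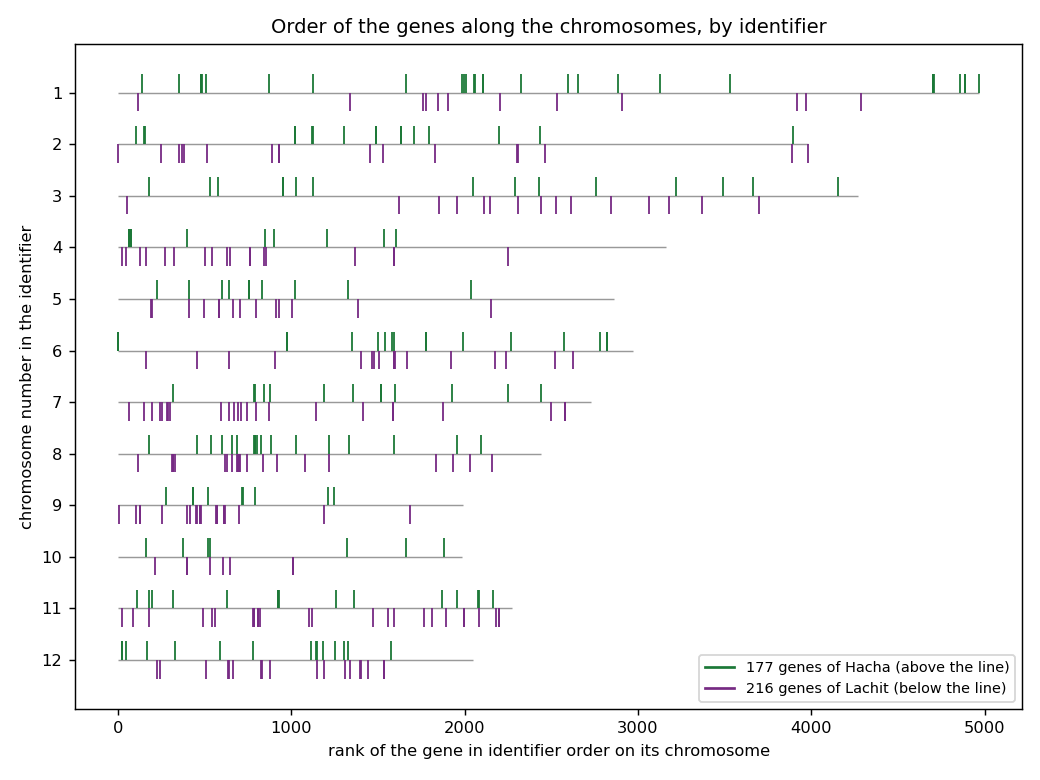
Rank in identifier order of the 177 genes (ticks above each line) and of the 216 genes of the exchanged rule (ticks below) on the 12 chromosomes; the length of a line is the number of genes on the chromosome. Ticks are spread over all chromosomes, with close groups near the start of chromosome 4 and near the end of chromosome 1.

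Some of the genes were next to each other. In identifier order, 36 of the 177 genes formed 18 pairs of adjacent genes, and no run was longer than 2. Among the 165 intervals between successive genes of the set on a chromosome, 18 held no other gene, another 18 held between 1 and 10 genes, and the median held 104. The pair with the highest summed level was OS05G0215033 with OS05G0215066, both low under excess iron. The next was OS01G0967400 with OS01G0967600 on chromosome 1, which ranged from 12.7 to 48.5 TPM and from 9.13 to 21.5 TPM over the 11 Hacha libraries. OS01G0967400 rose in root under excess iron (log2 fold change 0.65, SE 0.18, edgeR adjusted p = 0.00867), whereas OS01G0967600 had a log2 fold change of -0.03 (SE 0.17, edgeR adjusted p = 0.883). The third pair, OS12G0103500 with OS12G0103580 on chromosome 12, fell together in root. OS12G0103500 stood at 13.4, 11.9 and 14.6 TPM in control root and 7.29 and 5.31 TPM under excess iron (log2 fold change -0.70, SE 0.26, edgeR adjusted p = 0.0381), and OS12G0103580 at 48.2, 54.1 and 48.8 TPM and at 23.3 and 17.7 TPM (log2 fold change -0.92, SE 0.15, edgeR adjusted p = 0.000709).

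A pair of adjacent genes, OS06G0100550 and OS06G0100700, had equal TPM in each of the 23 libraries within 0.1%, and both have transcripts of 289 bases. The same held for OS01G0943000 and OS01G0943900, of 1026 bases, with 4 genes between them. Each such pair shares its reads and is a single measurement, so the 177 genes give 175 separate profiles. Both pairs fell in leaf under excess iron. The group means of OS01G0943000 were 10.7 TPM in control leaf and 4.08 TPM in excess-iron leaf (log2 fold change -1.31, SE 0.42, edgeR adjusted p = 0.0214), and those of OS06G0100550 were 4.60 and 0.925 TPM (log2 fold change -2.14, SE 0.61, edgeR adjusted p = 0.0174).

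The closest groups of the genes, picked out after their order was seen, were on chromosomes 4, 1 and 8. From OS04G0111500 to OS04G0114801, 5 of 13 successive genes belonged to the set, with means over the Hacha groups from 5.35 to 53.4 TPM, the highest being OS04G0113800. Of the 8 other genes in that stretch, 4 met the Hacha floor, and 3 of these reached 2 TPM in Lachit. From OS01G0943000 to OS01G0944200, 4 of 10 genes belonged to the set, 2 of them the pair with shared reads, at 7.40 to 30.1 TPM. From OS08G0236866 to OS08G0240000, 4 of 15 genes belonged to it, at 3.15 to 4.89 TPM, and 5 of the 6 other genes there that met the Hacha floor reached 2 TPM in Lachit.

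Beside the set, most expressed neighbours had a level in Lachit. The genes directly before and after the 177 genes, leaving out members of the set, numbered 310, of which 137 met the Hacha floor. Of these, 117 (85.4%) reached 2 TPM in at least 1 Lachit group, compared with 97.2% of all genes that met the floor. The 97.2% includes the 177 genes themselves among those that did not reach it, while the neighbours leave them out. The difference between these shares was not tested, since neighbouring genes are not independent.

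In 5 places a gene of the set lay next to a gene of the exchanged rule. The 310 neighbours outside the set thus held 5 such genes, against 216 among all 35679 genes, and this was not tested. They were OS05G0153500 beside OS05G0153901, OS08G0208400 beside OS08G0208700, OS10G0322300 beside OS10G0322600, OS12G0451300 beside OS12G0453500 and OS12G0505800 beside OS12G0505950. OS12G0505800 held 15.2, 22.5 and 13.9 TPM in control root, 15.1 and 12.3 in excess-iron root, 26.1, 32.6 and 30.1 in control leaf and 3.24, 6.04 and 6.23 in excess-iron leaf. Its fall in leaf had a log2 fold change of -2.44 (SE 0.36, edgeR adjusted p = 0.000182), with no overlap. The neighbour OS12G0505950 had a mean of 0 TPM in every Hacha group and a highest Lachit group mean of 9.58 TPM. OS05G0153500 held 24.2, 21.1 and 26.5 TPM in control leaf and 6.14, 7.38 and 5.84 TPM in excess-iron leaf (log2 fold change -1.77, SE 0.25, edgeR adjusted p = 0.000691), and its neighbour OS05G0153901 reached 5.24 TPM in Lachit and 0.0533 TPM in Hacha as highest group means. OS10G0322300 also fell in leaf, from 5.62, 5.11 and 6.86 TPM to 0.399, 1.34 and 0.524 TPM (log2 fold change -2.86, SE 0.49, edgeR adjusted p = 0.000838). OS12G0451300 was highest in control root, at 17.3, 16.0 and 12.1 TPM, and OS08G0208400 ranged from 4.70 to 14.1 TPM over the 11 Hacha libraries, where neither iron comparison passed the test.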

How the data were processed

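Each library came as a table of transcripts with their lengths, estimated counts and TPM. The authors made the estimated counts and the deposited TPM with kallisto after bcl2fastq, for the build IRGSP-1.0, per the submitters' processing notes; no source used here gives versions or settings. The TruSeq v2 kit does not mark strand, so a gene and an antisense partner cannot be told apart, and reads that match near-identical transcripts were split between them. The 42346 transcripts were summed to 35679 genes by identifier, and summed counts were rounded. Libraries were grouped by their titles. The RefSeq table matched 1 gene identifier and none of the set, so no names or sequences are given.

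Tests used edgeR 4.0.16 (R 4.3.3, filterByExpr, TMM, quasi-likelihood, Benjamini-Hochberg over all genes tested at 0.05): the 11 root or 12 leaf libraries for iron, and the 11 Hacha libraries for organ and interaction. CPM use library totals. Root excess iron had 2 libraries; without 1 of them the spread of the remaining one was taken from the other groups. No replicates agreed within sampling noise (chi-square per gene 7.69 to 277), and the code was checked on simulated counts. Alternatives were other size factors, no filter, DESeq2 1.42.0, limma 3.58.1 on log2(TPM + 1), other sets of libraries, a minimum log2 fold change of 1, each Hacha library of a comparison left out (for the list of genes, each of the 23) and, added after the data were seen, library totals. Named genes are the 8 most abundant, the 3 largest rises and falls of each Hacha comparison among called genes with at least 5 TPM and no overlap, the 3 steadiest, 3 adjacent pairs, those at the thresholds and 5 pairs with the exchanged rule; the largest rises and falls are by log2 fold change under this rule. OS06G0100550 and OS01G0943000 were named after their values were seen. Genes and lists were chosen with earlier results of these data known. Intervals and the floor of 3 counts cover counting error only.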

Additional observations from a re-analysis of the deposited data

Results flagged for a closer look

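The response to excess iron differed between leaf and root of Hacha for 92 of the 176 genes tested, by an interaction term in edgeR with adjusted p below 0.05. These levels entered the rule, so the count is a description. Among the genes named for their iron response, the log2 response in leaf minus that in root was negative for 5. It was -7.89 for OS01G0964333 (SE 1.03), -5.52 for OS06G0635500 (SE 0.53, edgeR adjusted p = 7.19e-05) and -4.74 for OS05G0215033 (SE 0.90). For OS01G0537250 it was -3.08 (SE 1.03, edgeR adjusted p = 0.0327) and for OS06G0539066 it was -2.48 (SE 0.41). It was positive for another 5. The values were 4.41 for OS01G0654900 (SE 0.91) and 3.18 for OS08G0260800 (SE 0.42). OS12G0106200 had 2.47 (SE 0.80, edgeR adjusted p = 0.0299) and OS11G0639300 had 2.43 (SE 0.62, edgeR adjusted p = 0.00999). No p is given for OS01G0654900, OS01G0964333, OS05G0215033, OS06G0539066 and OS08G0260800, which met the rule only through the groups where they are high. The value for OS01G0654900 rests on 1 read in excess-iron root and on leaf reads too few for the leaf test, so its size is uncertain. For OS05G0215066 the fitted value of 8.77 (SE 2.52, edgeR adjusted p = 0.0198) rests on a group without a read and depends on the prior count, so its size is no bound.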

How the results depend on the processing

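Counts of genes that rose or fell stayed within 1.5 times of the reported value under most alternatives. In root, 19 rose with a minimum log2 fold change of 1, or 10.9% against 17.4% of all genes. A fit of the 2 groups alone gave 46 rises, or 26.4% against 32.4%. With limma 84 fell, or 48.3% against 44.8%. In leaf, neither count moved that far except on leaving out control library 3, with 10 rises, or 5.99% against 25.2% of all genes. For control leaf against root, limma gave 41 higher and 76 lower, and library totals 41 and 71, with the shares of all genes given above. For leaf against root under excess iron, 21 were higher with library totals, or 11.9% against 18.4% of all genes. The fit of 2 groups gave 20, or 11.7% against 23.6%. Limma gave 31 higher responses in leaf than in root, or 17.6% against 37.8% of all genes. Each Hacha library of a comparison was left out in turn, and fits that left 1 library in excess-iron root are not counted here. In root this gave 25 to 27 rises and 22 to 23 falls, against 28.0% to 29.2% and 29.2% to 30.5% of all genes. In leaf it gave 10 to 18 rises and 62 to 73 falls, against 25.2% to 31.5% and 29.1% to 32.4%. For control leaf against root, 63 to 73 were higher and 40 to 43 lower, against 27.9% to 31.2% and 32.6% to 35.7% of all genes. Under excess iron the counts were 26 to 30 and 79 to 82, against 24.6% to 26.9% and 27.3% to 29.4%. The interaction ranged from 11 to 18 higher and 56 to 86 lower, with 11 lacking the same library. The shares of all genes called also moved between these fits, and the cause was not tested. The set itself held 106 genes with a Hacha floor of 5 TPM, 325 with 1 Hacha group required, 85 with all 4, and 173 to 181 without any 1 of the 23 libraries. Of 312 values of named genes under alternatives, 311 kept their direction and side of the threshold. OS12G0106200 in leaf did not, at an edgeR adjusted p of 0.0520 without control library 3. These genes were picked for large changes past the threshold, and the rule partly fixed some of those changes. The 311 thus follow largely from that choice and are a description. No paired analysis was possible because no replicate number in the titles is shared between groups; a further deposited TPM table numbers its columns within groups, but those columns carry no name that ties them to single libraries and were not used. In leaf, 10 genes had too few reads to be tested, among them OS07G0456033 and OS01G0143400, which had 1724 and 339 reads in control root.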
